A study of Mus musculus with 9 samples.

Results

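Testis RNA of Prm2+/Δc males, in 3 libraries, was compared with that of WT males, in 3 libraries, which together are 6 of the 9 libraries of the series. The members were chosen by genotype label: the 3 libraries labelled het carry 1 allele of Prm2 without the cleaved part of the protein and 1 intact allele, and the 3 libraries labelled WT carry no edited allele. The question is which transcripts differ in level when a testis carries 1 such allele. The 3 libraries labelled hom, Prm2-/Δc, in which the other allele of Prm2 is deleted, enter only where the Prm2+/Δc values are set beside them. The males were 10 to 13 weeks old by the study's methods.

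The labels give the strain background as C57BL/6. The edited founders came from B6D2F1 zygotes, a cross of C57BL/6 and DBA/2, and the line was backcrossed for at least 3 generations, and how much DBA/2 sequence remains is not given. Whether the WT males were littermates is not given. RNA was taken from whole testes without the outer capsule, so germ cells and somatic cells were sequenced together, and fewer cells of a type cannot be told apart from less RNA per cell.

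Late in spermatogenesis, spermatids stop transcribing and their histones are replaced, first by transition proteins and then by protamines. Protamines pack the DNA of the sperm head. Protamine 2 is made as a precursor whose front part, cP2, is cut off step by step after it has bound DNA. Since spermatids store transcripts for later translation, the RNA of an adult testis holds messages from many stages at once.

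The edited allele was made with a pair of guides that lie in exon 1 of Prm2. They are shown with the NGG motif next to each in capitals because they set the predicted cleavage points.
guide gRNA1: cctcattcggtagcgaaccaTGG
guide gRNA2: ggactatgggaggacacacAGG
On GRCm38, gRNA1 matches the plus strand at chr16:10791978-10791997 and gRNA2 the minus strand, the strand of the gene, at chr16:10791867-10791885. Among the annotated mouse transcripts, each guide with its motif occurs in those of 1 gene, Prm2. The stretch of exon 1 that holds both sites follows in the sense of the transcript, chr16:10791864-10791998 on the minus strand, with the 125 bases between the predicted cleavage points in capitals.
Prm2 exon 1: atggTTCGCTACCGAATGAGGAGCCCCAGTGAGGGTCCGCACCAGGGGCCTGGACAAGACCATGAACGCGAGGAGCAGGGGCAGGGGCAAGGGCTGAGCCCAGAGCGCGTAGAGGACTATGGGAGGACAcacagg
The capitals begin just after the start codon and code for the front part of the precursor. The exact junction of the edited allele, which was made with a repair template, was not read here. The 385 bases of the transcript beyond the second cleavage point lie outside the stretch in capitals. Whether the deletion reaches into their first bases was not read. The libraries sample the 3′ ends of transcripts, so a count for Prm2 adds up both alleles.

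The data are 3′ mRNA libraries (QuantSeq), which place reads near the ends of polyadenylated transcripts. The 6 libraries held 9070746, 11314641 and 16799651 counts in WT and 12041708, 16347645 and 20320362 in Prm2+/Δc, so the smallest library is WT replicate 1 and the largest is Prm2+/Δc replicate 3. The table has a value for 50485 loci, of which 25503 were assembled by StringTie and carry a locus number and 24982 carry an Ensembl gene identifier. The Ensembl loci held between 0.376% and 0.414% of the counts in these 6 libraries. The most abundant locus, MSTRG.9667, which has no name, took 5.49%, 5.82% and 6.75% of the counts in WT and 6.72%, 6.47% and 10.6% in Prm2+/Δc. Its share was highest in Prm2+/Δc replicate 3, and the groups overlapped (log2 fold change 0.44, standard error 0.22, edgeR adjusted p = 0.999). Pairs of WT libraries correlated at 0.886 to 0.889 across loci on a log2 scale, pairs of Prm2+/Δc libraries at 0.909 to 0.921, and pairs with 1 of each at 0.895 to 0.916. The pairs across genotypes thus overlapped the range of the Prm2+/Δc pairs and lay above that of the WT pairs.

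Values per library below are normalized counts, which are counts divided by a size factor for depth, always in the order of replicates 1 to 3. The locus read as Prm2, MSTRG.8527, had 109802, 100886 and 122024 in WT and 92847, 101271 and 106746 in Prm2+/Δc. The groups overlapped, with Prm2+/Δc replicate 1 as the lowest library and WT replicate 3 as the highest. The log2 fold change was -0.15, with a 95% interval from -0.37 to 0.07, and the exact two-sided permutation test gave p = 0.3, where 3 against 3 libraries cannot go below 0.1. This locus is identified by its place in the order of loci on chromosome 16 alone. The loci read in the same way as its neighbours had log2 fold changes of 0.02 for Tnp2, a transition protein, -0.14 for Prm3 and -0.12 for Prm1, the other main protamine. All 3 had an edgeR adjusted p of 0.999.

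Across all transcripts, the Prm2+/Δc and WT testes differed in few loci. Of the 50485 loci, 17815 (35.3%) had enough counts to be tested, and 13 of them (0.073%) were called by edgeR, which here needs a log2 fold change over 1 in size and an adjusted p under 0.05. Higher in Prm2+/Δc were 5 loci (0.0281%): Pcgf5, 4930469G21Rik, Trim17, Kxd1 and Csnk1d. Lower were 8 (0.0449%): Slc25a3, Acsl1, Cylc1, Ing4, Rps20, Psmd4, Tmem52 and Fam110b. At an unadjusted p under 0.05, 315 loci were higher (1.77%) and 344 lower (1.93%), together 3.7% of those tested. DESeq2 called 41 higher (0.23%) and 47 lower (0.264%), and the 13 of edgeR were all among its 88 (0.494%).

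The number of calls rested on single libraries. Without WT replicate 3, edgeR called 14 higher and 23 lower. Without WT replicate 1 it called 8 higher and 14 lower, without WT replicate 2 it called 11 higher, and without Prm2+/Δc replicate 3 it called 8 higher. Of the 13 loci, 9 were called in each of the 6 fits that left out 1 library, and the other 4 were Trim17, Csnk1d, Fam110b and Tmem52. With all 9 libraries in 1 fit, where the Prm2-/Δc libraries add to the estimate of spread, Slc25a3, Pcgf5, Rps20 and Fam110b were called and the other 9 were not, Trim17, Kxd1, Acsl1, Cylc1, Psmd4, Ing4, Csnk1d, Tmem52 and 4930469G21Rik, with an edgeR adjusted p from 0.173 to 0.9999. With the replicate number as a block, Slc25a3, Cylc1 and 4930469G21Rik were called and the other 10 were not, with an edgeR adjusted p from 0.0601 to 0.442.

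The median size of a log2 fold change was 0.19. Positive fold changes were found at 8901 loci and negative ones at 8914, a balance that the TMM scaling sets by centring the fold changes, so it says nothing of a common direction. An absolute log2 fold change over 1 was found at 1018 loci, of which 13 were called. At 1813 of the tested loci (10.2%) the 3 Prm2+/Δc libraries did not overlap the 3 WT libraries, 991 with Prm2+/Δc higher (5.56%) and 822 with Prm2+/Δc lower (4.61%). In the plot of fold change against abundance, the 13 called loci are spread over more than 2 orders of magnitude in abundance, and many uncalled loci have folds as large.

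**Figure D1:**
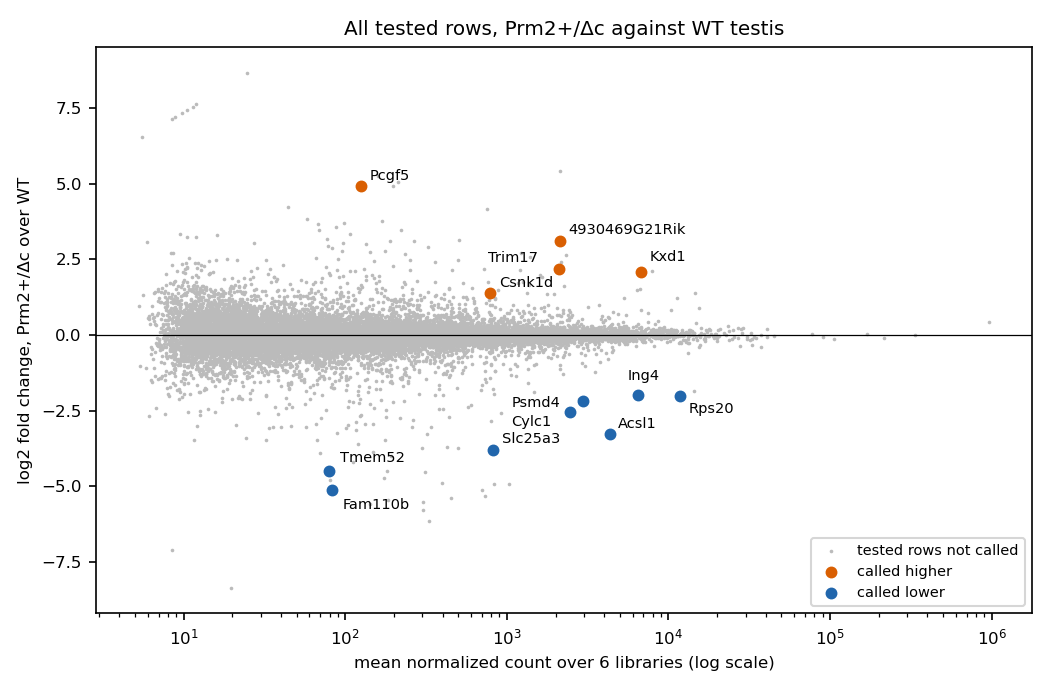
Log2 fold change of Prm2+/Δc over WT against the mean normalized count of the 6 libraries (log scale), 1 point for each of the 17815 loci tested. The 5 called higher are orange and the 8 called lower are blue, and grey points are loci not called, some of them with folds as large.

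Names limit what can be said of the other loci. The deposited table gives StringTie loci no gene name, and 150 could be named from the lists of differing loci that the study published for its 2 genotypes, of which 86 come from the list for Prm2+/Δc. That list was drawn from these same 6 libraries, so its 87 tested loci, Ensembl ones included, all have an unadjusted p under 0.05 through their selection, and their directions are no independent evidence. Of the 16027 tested StringTie loci without a name, edgeR called 0, while 522 had an unadjusted p under 0.05 and DESeq2 called 21. Over all 16172 tested StringTie loci, 615 (3.8%) had such a p. Genes are grouped below by role from the published lists. Of the 87 tested loci of the list for Prm2+/Δc, edgeR called 13, against 0.073% of all loci. DESeq2 called 67 of them, against 0.494%. Calls in a role therefore describe its genes and say nothing about the role.

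Among genes of spermatogenesis and sperm structure, Cylc1 was lower in Prm2+/Δc. It encodes cylicin 1, a cytoskeletal protein of the perinuclear theca around the sperm nucleus, and lies on the X chromosome (chrX:111110418-111125854), of which a male has 1 copy. Its locus, MSTRG.24999, had 4379.6, 4073 and 4113 in WT and 765, 693 and 711 in Prm2+/Δc. All 3 WT libraries lay far above all 3 Prm2+/Δc libraries, with little spread in either group. The level was 5.81-fold lower (log2 fold change -2.54, standard error 0.09, edgeR adjusted p = 0.00053). In the 3 Prm2-/Δc libraries it was 857, 945 and 5943, so the first and second lay near the Prm2+/Δc level and the third above WT. Of the 6 genes grouped under this role, 1 was called lower and 0 higher by edgeR, while DESeq2 called 5. All 6 had an unadjusted p under 0.05, 5 lower and 1 higher, as the choice from the published list requires. M1ap, needed for meiosis in males, had 709, 695 and 304 in WT and 109.7, 154 and 169.9 in Prm2+/Δc (log2 fold change -1.98, standard error 0.37, edgeR adjusted p = 0.709). Its libraries did not overlap, but WT replicate 3 stood more than 2-fold below the other WT libraries. Without that library, picked for its value, M1ap was called, at -2.29. In every other fit that left out 1 library it was not called, with an edgeR adjusted p of at least 0.807. Lemd1, a LEM domain protein of testis, had 1119, 1103 and 1203 against 299, 449 and 530.1 (log2 fold change -1.43, standard error 0.22, edgeR adjusted p = 0.33), again without overlap.

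Of the 8 genes of mitochondria, lipid and small molecule metabolism, edgeR called 2 lower and 0 higher. They come from a list picked from these libraries, of which edgeR called 13 of 87. DESeq2 called 8 of the 8. Slc25a3 (chr10:91116574-91124059) encodes the carrier that brings phosphate into mitochondria for ATP synthesis. Its locus, MSTRG.2635, had 1628, 1563 and 1422 in WT and 114, 124 and 94.5 in Prm2+/Δc. Every Prm2+/Δc library was more than 10-fold below every WT library, and the means differed 13.9-fold (log2 fold change -3.80, standard error 0.15, edgeR adjusted p = 0.000923). Acsl1 (chr8:46471037-46536051) joins long-chain fatty acids to coenzyme A. It had 7806, 7020.4 and 8666 in WT and 693, 1028 and 723 in Prm2+/Δc. The groups were far apart, with Prm2+/Δc replicate 2 the highest of its group, and the level was 9.63-fold lower (log2 fold change -3.27, standard error 0.19, edgeR adjusted p = 0.00433). Mgst1, a membrane-bound glutathione transferase of mitochondria and the endoplasmic reticulum, had 198, 169 and 102 in WT and 7.92, 2.57 and 6.34 in Prm2+/Δc and was not called (log2 fold change -4.79, standard error 0.48, edgeR adjusted p = 0.0526). It was called without WT replicate 3, at -5.02, and without the filter on low counts or with a robust dispersion. In the other fits that left out 1 library it was not called (edgeR adjusted p from 0.106 to 0.264). Sgsh, a lysosomal sulfatase, had 203, 245 and 260.0 against 106, 80.7 and 113 (edgeR adjusted p = 0.375), and Ide, the insulin-degrading enzyme, 368, 474 and 464 against 703, 1417 and 1169.5 (edgeR adjusted p = 0.893). Both were separate between the groups. Sgsh and Ide are examples picked after their values were seen.

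Of 7 genes of chromatin and transcription, 1 was called higher and 1 lower by edgeR, while DESeq2 called 6. Pcgf5 (chr19:36348309-36460970) is a subunit of a variant Polycomb repressive complex that places ubiquitin on histones. MSTRG.10941, its locus, had 7.48, 10.8 and 5.74 in WT and 268, 199 and 259 in Prm2+/Δc. It was close to absent in all 3 WT libraries and present in all 3 Prm2+/Δc libraries, with 30.05-fold between the means (log2 fold change 4.91, standard error 0.31, edgeR adjusted p = 0.00564). Ing4 (chr6:125039760-125049265) reads methylated histones for a histone acetyltransferase complex. It had 10187, 10403 and 10389.5 in WT and 2621, 2829 and 2428 in Prm2+/Δc, 2 narrow groups that were 3.94-fold apart (log2 fold change -1.98, standard error 0.08, edgeR adjusted p = 0.000923). Pbrm1, a subunit of a chromatin remodelling complex, had 465, 587 and 663 against 257, 201 and 265 and was not called (log2 fold change -1.25, standard error 0.19, edgeR adjusted p = 0.32), though its groups did not overlap. Of the 20 genes listed for Polycomb repressive complex 1, only Pcgf5 and Cbx8 had a named locus, so the complex as a whole was not measured.

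Genes that make, mark and degrade proteins gave 3 calls. Rps20 (chr4:3831334-3835665), a protein of the small ribosomal subunit, had 18112, 19197 and 19756 in WT and 4248, 5235 and 4581 in Prm2+/Δc. Each group was narrow and they were 4.07-fold apart (log2 fold change -2.02, standard error 0.10, edgeR adjusted p = 0.00167). Psmd4 (chr3:95032694-95042614), which binds ubiquitin chains at the proteasome, had 4321, 5068 and 5096 in WT and 1250.0, 929 and 1023 in Prm2+/Δc. It was 4.54-fold lower, without overlap (log2 fold change -2.18, standard error 0.14, edgeR adjusted p = 0.00617). Trim17 (chr11:58954685-58973098), a ubiquitin ligase known from testis, had 563, 727 and 973 in WT and 3362, 3510.4 and 3486 in Prm2+/Δc. The Prm2+/Δc libraries agreed closely while WT varied, with replicate 3 highest, and the level was 4.56-fold higher (log2 fold change 2.19, standard error 0.20, edgeR adjusted p = 0.0398). Trim17 was not called without WT replicate 2 or without any 1 of the Prm2+/Δc replicates. Over all 6 fits that left out 1 library, including the 2 that called it, its edgeR adjusted p ran from 0.0114 to 0.17. It was called in 9 of the 12 other fits, and not with all 9 libraries together, with the replicate block or when a log2 fold change beyond 1 was tested for. The 8 genes of ubiquitin and protein quality control held 1 edgeR call in each direction, and the 6 of ribosome and RNA processing 1 lower and 0 higher. The list they were drawn from had 13 of 87 called, and all loci 13 of 17815. DESeq2 called 5 of the 8 and 3 of the 6.

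Among the uncalled genes of these roles, Eri3, an exonuclease of the family that trims RNA ends, had 53.9, 39.8 and 17.2 in WT and 409.5, 397 and 408 in Prm2+/Δc (log2 fold change 3.47, standard error 0.41, edgeR adjusted p = 0.117). The Prm2+/Δc libraries agreed closely, and the WT libraries ranged over 3-fold. Without WT replicate 3, the lowest, the gene was called, at 3.11. In the other fits that left out 1 library it was not called (edgeR adjusted p from 0.101 to 0.364). Fbxl18, an F-box protein that selects targets for ubiquitin, had 34.4, 27.7 and 18.05 against 157, 107 and 114 (log2 fold change 2.24, standard error 0.32, edgeR adjusted p = 0.273), and Ccnl2, a cyclin of RNA splicing, 361, 436 and 292 against 137, 148 and 95.2 (log2 fold change -1.52, standard error 0.24, edgeR adjusted p = 0.375). Neither pair of groups overlapped. Of the other proteins in the same complexes, Psmd4 was the only 1 of 18 genes of the proteasome's regulatory particle with a named locus, and Rps20 the only 1 of 32 of the small ribosomal subunit. Likewise Kxd1 was the only 1 of 8 BORC genes and Cylc1 the only 1 of 10 theca genes with one, and of 27 mitochondrial carriers 5 had one, of which 3 were tested and 1, Slc25a3, was called.

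Kxd1 and Csnk1d were the calls among genes of membrane traffic and of kinases. Kxd1 (chr8:70508272-70527956), a subunit of the BORC complex that positions lysosomes, had 2755, 2481 and 2503 in WT and 10112, 11433 and 11385 in Prm2+/Δc. Both groups were narrow, 4.24-fold apart (log2 fold change 2.08, standard error 0.09, edgeR adjusted p = 0.000923). Csnk1d (chr11:120961749-120991330), casein kinase 1 delta, which acts on clock and other proteins, had 385, 501 and 420.0 in WT and 1173, 1194 and 1067 in Prm2+/Δc. The groups did not overlap and were 2.62-fold apart (log2 fold change 1.39, standard error 0.13, edgeR adjusted p = 0.0496), the smallest fold and the highest adjusted p of the 13. Csnk1d was not called without WT replicate 1 or 3 or without any 1 of the Prm2+/Δc replicates. Over all 6 fits that left out 1 library, including the 1 that called it, its edgeR adjusted p ran from 0.0495 to 0.17. It was called in only 5 of the 12 fits that left out none of the 6 libraries. The call was lost with DESeq2's size factors, with library totals, with a filter at a mean of 10 counts, with counts multiplied by 1.5, with all 9 libraries together, with the replicate block and when a log2 fold change beyond 1 was tested for. Of the 7 genes of membrane traffic, edgeR called 1 higher, and of the 7 kinase, phosphatase and partner genes 1 higher, with 0 lower in both. DESeq2 called 6 in each.

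Ergic2, a protein of the compartment between endoplasmic reticulum and Golgi, had 613, 960.4 and 469 in WT and 4208, 3345 and 3328 in Prm2+/Δc without a call (log2 fold change 2.41, standard error 0.28, edgeR adjusted p = 0.115). Trappc12, of a vesicle tethering complex, had 162, 155 and 145 against 380.1, 342 and 338 (log2 fold change 1.19, standard error 0.13, edgeR adjusted p = 0.102). Both were separate between genotypes, Trappc12 with narrow groups. Ergic2 was called without WT replicate 2, at 2.74, and in no other fit that left out 1 library. The growth factor gene Pdgfa had 162, 192 and 189 against 355, 469 and 481 (log2 fold change 1.26, standard error 0.17, edgeR adjusted p = 0.23), and Irak1, a kinase of innate immune signalling on the X chromosome, 83.8, 66.3 and 58.2 against 23.8, 22.3 and 14.8 (log2 fold change -1.78, standard error 0.30, edgeR adjusted p = 0.461). In neither did the groups overlap.

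The 3 other calls are genes known by a clone name or with little known of their function. 4930469G21Rik (chr1:161154558-161159314), annotated as protein coding, had 405, 434 and 481 in WT and 3671, 4048 and 3768 in Prm2+/Δc. Both groups were narrow and 8.67-fold apart (log2 fold change 3.12, standard error 0.10, edgeR adjusted p = 0.00053). It was the 1 edgeR call among 6 genes named by clone only, of which DESeq2 called 3. All 6 had an unadjusted p under 0.05. Of the others, 1810032O08Rik had 23.9, 25.3 and 21.3 against 62.2, 93.6 and 90.9 (log2 fold change 1.80, standard error 0.26, edgeR adjusted p = 0.273), and 1700017L05Rik 1699.8, 1679 and 1862 against 2396, 3228 and 3688 (log2 fold change 0.83, standard error 0.16, edgeR adjusted p = 0.877). Their groups did not overlap. Tmem52 (chr4:155469114-155470858), a membrane protein, had 129, 134 and 196 against 7.92, 6.87 and 5.64. It was near absent in all 3 Prm2+/Δc libraries (log2 fold change -4.49, standard error 0.30, edgeR adjusted p = 0.00653). It was not called without Prm2+/Δc replicate 2, with all 9 libraries together or with the replicate block. In the 6 fits that left out 1 library, including the 5 that called it, the edgeR adjusted p ran from 0.0122 to 0.0734. Fam110b (chr4:5644090-6108223), of a family found at centrosomes, had 163, 145 and 176 against 5.66, 6.01 and 2.11. This was the largest fold of the 13, 35.3-fold lower (log2 fold change -5.14, standard error 0.40, edgeR adjusted p = 0.0152), and it was not called without WT replicate 1 or 2 or Prm2+/Δc replicate 1 or 2. In the same 6 fits, including the 2 that called it, the edgeR adjusted p of Fam110b ran from 0.021 to 0.0806.

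In the panels of the 13 genes by library, no Prm2+/Δc library overlaps a WT library. The genes were called on these same libraries, so the separation largely follows from their selection and is no further evidence. Among all 17815 loci tested, 1813 (10.2%) were without overlap. The nearest pair of libraries of the 2 genotypes lay between 2.13-fold and 24.1-fold apart. The coefficient of variation ran from 1.17% to 32.3% within WT and from 2.30% to 46.9% within Prm2+/Δc.

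**Figure D2:**
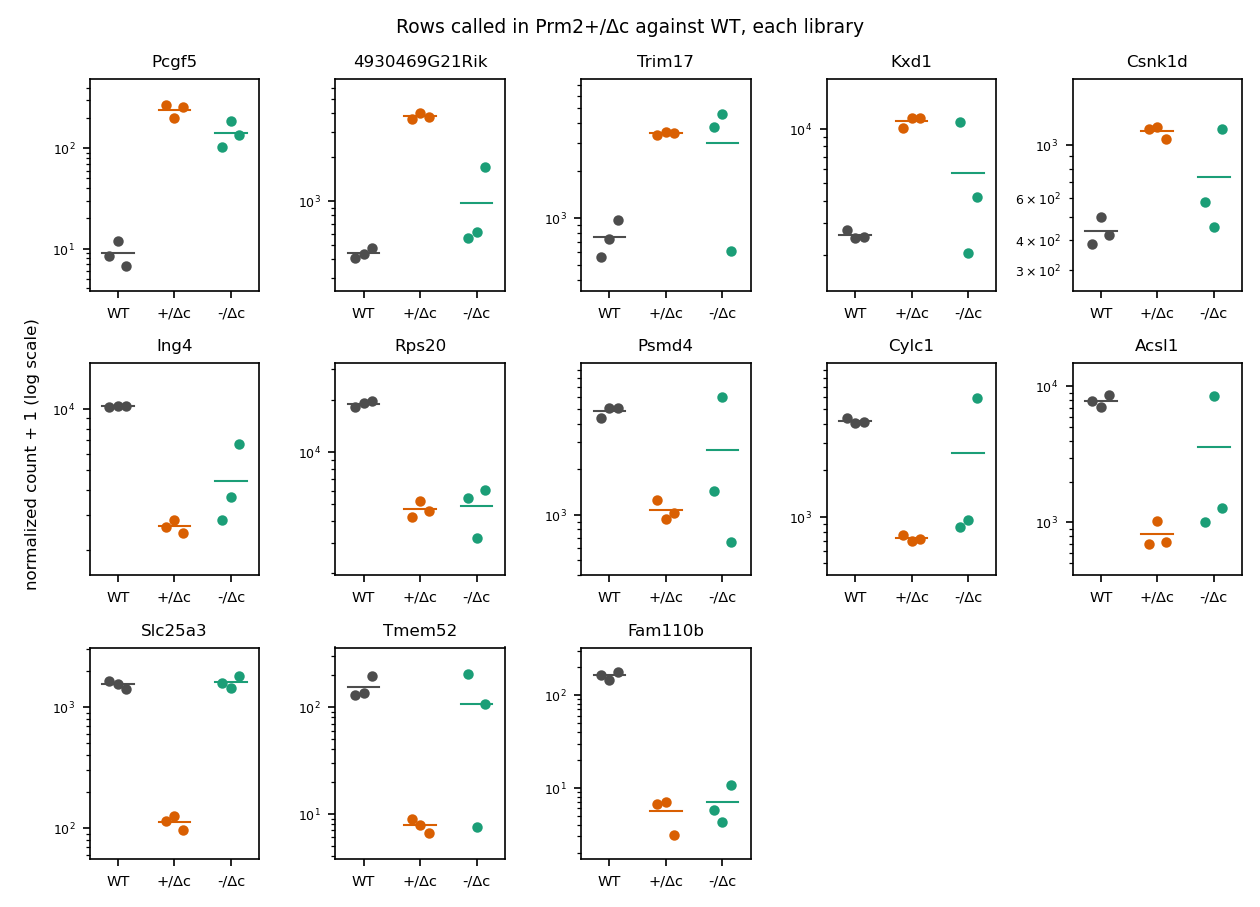
Normalized counts plus 1 (log scale) of the 13 called genes, 1 point for each library, with a line at the mean of each genotype (+/Δc is Prm2+/Δc and -/Δc is Prm2-/Δc, 3 libraries each). WT and Prm2+/Δc are apart in every panel, which largely follows from the selection of these genes on the same libraries. The Prm2-/Δc libraries split between both levels in 9 panels.

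The Prm2-/Δc libraries, which also carry the edited allele, did not keep to 1 side. For each of the 13 genes, each Prm2-/Δc library was assigned to the genotype whose mean was nearer on a log scale. Replicate 1 lay nearer Prm2+/Δc for 9 genes, replicate 2 for 7 and replicate 3 for 7. All 3 were nearer Prm2+/Δc at 3 genes, Rps20, Pcgf5 and Fam110b. At Rps20 they had 5410.1, 3192 and 6067, at Pcgf5 101, 188 and 136 and at Fam110b 4.83, 3.29 and 9.78 normalized counts. At 5 genes 2 of 3 were nearer Prm2+/Δc, as at Acsl1, where replicate 2 alone was at the WT level (1008, 8507 and 1286). At 4 genes 1 of 3 was, as at 4930469G21Rik, where replicates 1 and 2 were near WT (562, 611 and 1725). Slc25a3 was the 1 gene with none nearer Prm2+/Δc (1593, 1423 and 1788).

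A direct edgeR test of Prm2-/Δc against Prm2+/Δc covered 17986 loci and called 2 (0.0111%), with 733 at an unadjusted p under 0.05 (4.08%). Of the 13 genes, 11 could be tested there, and 4 had an unadjusted p under 0.05. Slc25a3 was called, 3.85 higher in Prm2-/Δc on the log2 scale (standard error 0.18, edgeR adjusted p = 0.0078). Without Prm2+/Δc replicate 2 or 3 it was not called (edgeR adjusted p = 0.0528 and 0.0929), nor with the replicate number as a block (0.575). The adjusted p over all alternatives ran from 1.7e-71, with DESeq2, to 0.575. For 4930469G21Rik the difference was -1.98 with an edgeR adjusted p of 0.845, so a level apart from Prm2+/Δc was not shown. Tmem52 and Fam110b did not pass the filter on low counts for this test.

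Assembled loci may split the transcripts of 1 gene, or share the reads of neighbouring genes, so each called locus was also summed with the 2 loci before and the 2 after it in the numbering. Summed in this way, 8 of 13 were still called. Trim17 hardly moved (log2 fold change 2.15), nor did Cylc1 (-2.35) or Rps20 (-1.79), whose neighbours hold few counts beside them. Slc25a3 (-2.16), Acsl1 (-2.25), Psmd4 (-1.67), Ing4 (-1.40) and Kxd1 (1.32) moved further toward 0. Pcgf5 (0.58), Csnk1d (0.59), Tmem52 (-0.32) and Fam110b (-0.17) were no longer called, nor was 4930469G21Rik (1.02, edgeR adjusted p = 0.0531). At these 5 and at Kxd1 the neighbours held more WT counts than the gene. Of the 36 neighbouring loci that could be tested, edgeR called 0, and 1 had an unadjusted p under 0.05. Among all loci tested the shares were 0.073% and 3.7%, so these counts say nothing particular of the neighbours. At 3 of the 13 genes the summed neighbours changed in the opposite direction to the gene. They rose by 12.2 normalized counts at Acsl1, 26.4 at Psmd4 and 10.04 at Slc25a3, beside changes of -7016, -3761 and -1427 at the genes themselves.

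**Figure D3:**
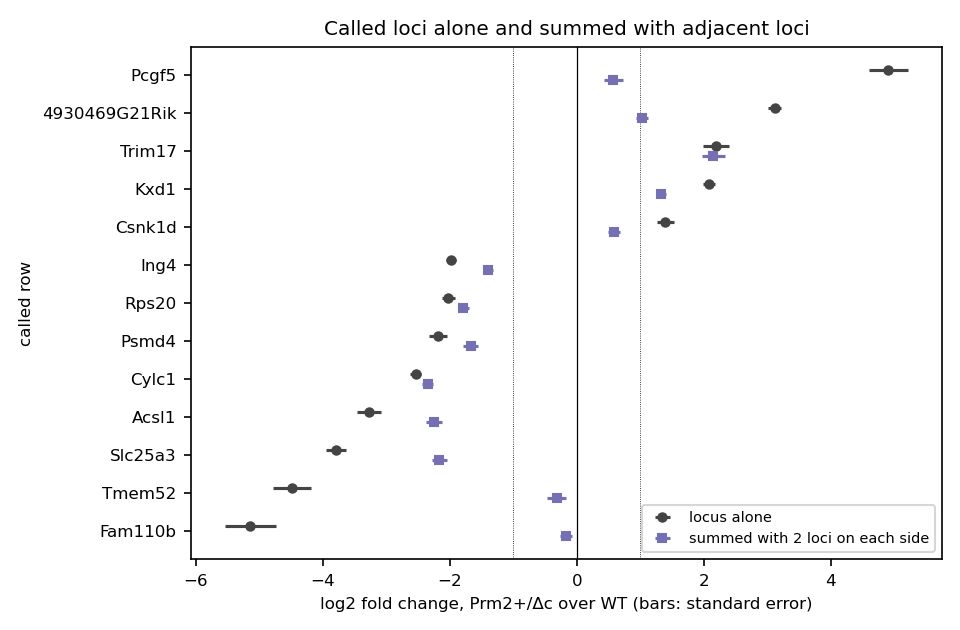
Log2 fold change of Prm2+/Δc over WT for each of the 13 called loci alone (circles) and summed with the 2 loci on each side (squares), with bars for the standard error and dotted lines at a log2 fold change of 1 in either direction. For Pcgf5, Csnk1d, Tmem52 and Fam110b the summed values, from -0.32 to 0.59, lie inside the dotted lines, while for Trim17 and Cylc1 they lie close to the value of the locus alone.

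Some of these genes also share sequence with others. Over the last 500 bases of their annotated transcripts, where 3′ reads fall, 7 of the 13 called genes had words of 50 bases, the read length, that also occur in transcripts of another gene. Ing4 shared 57.1% of its words, all with Gm44597, which overlaps it. Rps20 shared 25.3% with 5 other genes, among them Gm4332 and Gm4997. Acsl1 shared 11.9% with Gm45244 on the opposite strand, and Slc25a3 shared 3.36% with Gm13904. Csnk1d and Pcgf5 shared 0.676% and 0.346%, and 6 of the 13 shared none. An annotated gene overlapped 10 of the 13, on the same strand for 7 and on the other strand for 8. How reads that match several places were counted is not given, and their part in the calls was not tested.

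The named genes under the cutoff form a long tail. Just inside the threshold were Trim17 (edgeR adjusted p = 0.0398) and Csnk1d (0.0496), and just outside were Mgst1 and Zc2hc1a, both at 0.0526. Of the 87 tested loci named through the list for Prm2+/Δc, DESeq2 called 67. By edgeR 74 of the 87 were not called, 37 higher and 37 lower. Their edgeR adjusted p ran from 0.0526 to 0.999 with a median of 0.953, 7 of them under 0.2 and 39 over 0.9. At 60 of the 74 the genotypes did not overlap and at 14 they did, where 10.2% of all loci tested were without overlap, and their selection on these libraries raises that number. At 28 of them the libraries of 1 genotype ranged over more than 4-fold, WT at 18 and Prm2+/Δc at 11, which was the case at 0 of the 13 called.

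At several genes a single library stood apart from its genotype. Pard6a, a cell polarity protein, had 1371, 1248 and 22.97 in WT and 14.7, 24.03 and 23.3 in Prm2+/Δc (log2 fold change -5.40, standard error 1.39, edgeR adjusted p = 0.999). WT replicate 3 stood with the Prm2+/Δc libraries, and the groups overlapped. At Slc41a3, a magnesium transporter, the values were 4.49, 913 and 1026 in WT and 12.4, 11.2 and 4.23 in Prm2+/Δc (log2 fold change -6.15, standard error 1.67, edgeR adjusted p = 0.999). Here it was WT replicate 1 that stood with the Prm2+/Δc libraries. Mcm5, of the helicase that opens DNA for replication, had 269, 308 and 257 against 3.39, 6.01 and 45.1, with Prm2+/Δc replicate 3 apart from its group (log2 fold change -3.88, standard error 0.89, edgeR adjusted p = 0.999), and the centromere protein gene Itgb3bp 102, 128 and 109 against 926, 739.9 and 159, with replicate 3 of Prm2+/Δc close to WT (log2 fold change 2.42, standard error 0.62, edgeR adjusted p = 0.999). DNA replication and centromere genes, 2 in all, gave 0 calls by edgeR and both had an unadjusted p under 0.05. DESeq2 called Pard6a, Slc41a3, Mcm5 and Itgb3bp. So did edgeR without the library that stood apart. The log2 fold changes were then -5.97 for Pard6a, -6.73 for Slc41a3, -5.82 for Mcm5 and 2.88 for Itgb3bp. That library was picked for its value, so the gain of a call is built into the choice and is no evidence of a difference. None of these genes was called in any other fit that left out 1 library.

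Cytoskeleton and cell polarity genes gave 0 edgeR calls of 6, all with an unadjusted p under 0.05, and ion channel and solute carrier genes 0 of 3 tested, likewise. Chn1, a GTPase-activating protein for Rac, had 458, 104 and 413 against 65.6, 57.5 and 86.7 (log2 fold change -2.22, standard error 0.56, edgeR adjusted p = 0.999), with WT replicate 2 nearest to Prm2+/Δc. The zinc transporter gene Slc39a7 had 499.8, 487 and 793 against 229.6, 222 and 325 (log2 fold change -1.20, standard error 0.26, edgeR adjusted p = 0.991). Its groups were close to each other but did not overlap. DESeq2 called 5 of these 6 cytoskeleton genes and 3 of the 3 transport genes.

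**Figure D4:**
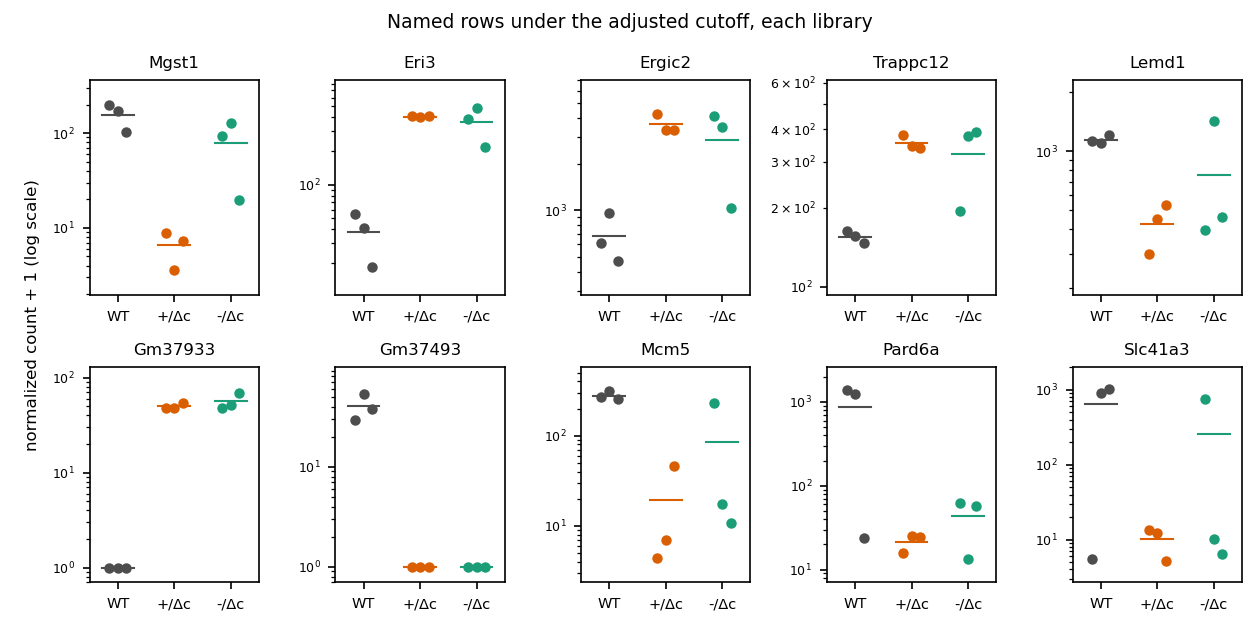
Normalized counts plus 1 (log scale) of 10 named genes that edgeR did not call, 1 point for each library, with a line at the mean of each genotype (+/Δc is Prm2+/Δc and -/Δc is Prm2-/Δc). In the upper row the WT and Prm2+/Δc libraries are apart, while at Pard6a and Slc41a3 a single WT library lies at the Prm2+/Δc level.

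At several named genes 1 genotype had no counts at all. Folds against such a group are lower bounds, with each empty library set to a floor of 3 counts per library. Each bound compares the summed counts of the groups, divided by their summed size factors, and not the means of the values shown. Gm37933, a long noncoding RNA gene, had 0 in every WT library and 47.5, 47.2 and 52.9 in Prm2+/Δc, at least 14.98-fold higher (edgeR adjusted p = 0.111). Gm37493, a processed pseudogene, had 28.4, 53.02 and 36.9 in WT and 0 in every Prm2+/Δc library, at least 15.3-fold lower (edgeR adjusted p = 0.273). Their loci are adjacent, MSTRG.13621 and MSTRG.13622, the genes overlap on opposite strands, and 61.0% and 80.2% of their 50-base words are shared. In the fit of all 9 libraries Gm37933 was called. Summed, the pair had 28.4, 53.0 and 36.9 in WT and 47.5, 47.2 and 52.9 in Prm2+/Δc, and these groups overlapped. In WT the counts stood at Gm37493 and in Prm2+/Δc at Gm37933.

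Trip10, which bends membranes at actin sites, had 0 in WT and 24.9, 15.4 and 22.6 in Prm2+/Δc, at least 6.27-fold higher (edgeR adjusted p = 0.564). AC159617.1 was at least 7.14-fold higher (29.4, 16.3 and 26.1 against 0, edgeR adjusted p = 0.534) and 9630041A04Rik at least 6.53-fold higher (35.1, 11.2 and 21.9 against 0, edgeR adjusted p = 0.899). In all 3 genes the 3 Prm2+/Δc libraries held counts and the WT libraries none. AC153955.4 had 14, 18 and 10 raw counts in WT and 0 in Prm2+/Δc, and Slc4a11, a solute carrier, 5, 19 and 18 against 0. Both were too low for the test, so 2 of the 89 loci named through this list have no p. Noncoding and predicted genes gave 0 edgeR calls of 7 tested, all 7 with an unadjusted p under 0.05, and 6 by DESeq2.

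Libraries of the same genotype differed widely at some loci. Among the 9891 loci with a mean of at least 100 normalized counts, the highest WT library exceeded the lowest more than 4-fold at 655 (6.62%), and within Prm2+/Δc at 527 (5.33%). The median ratio was 1.32 in WT and 1.23 in Prm2+/Δc, so most loci were close among the libraries of a genotype. A gap of more than 4-fold between all WT and all Prm2+/Δc libraries was found at 8 loci (0.0809%), and of more than 2-fold at 21. More than 10-fold within WT were 351 loci and within Prm2+/Δc 272, against 2 between the genotypes. All these ratios were taken with 1 added to each normalized count. A gap exists only where the groups are separate, so the curves of spread and of gap describe different quantities.

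**Figure D5:**
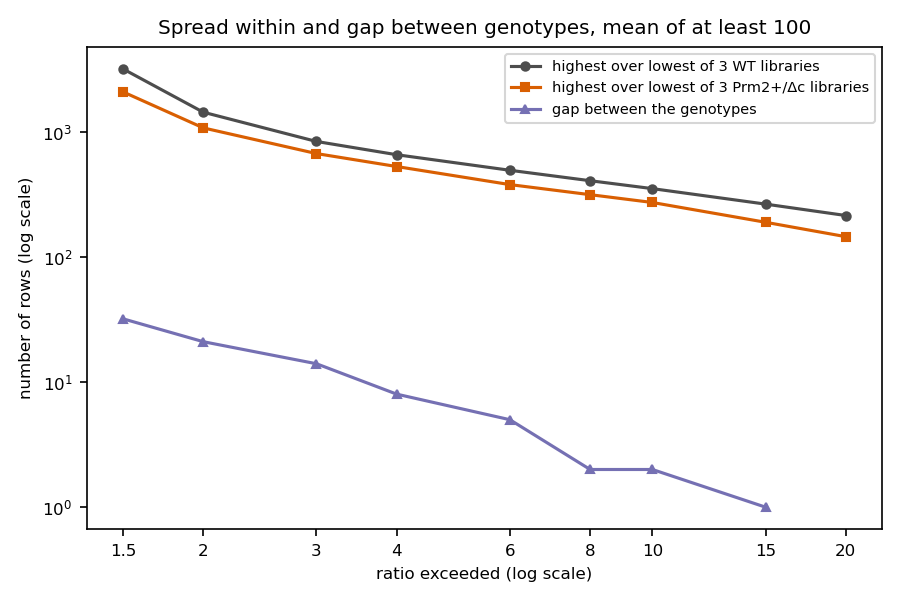
Number of loci (log scale) among the 9891 with a mean of at least 100 normalized counts at which a ratio exceeds the value on the x axis (log scale), for the highest over the lowest library within WT, within Prm2+/Δc, and for the gap between the nearest libraries of the 2 genotypes. At 4-fold the counts are 655, 527 and 8, and at 20-fold no locus has a gap between the genotypes, so that point is not drawn.

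Crem, which encodes a transcription factor of spermatids, was among the 21 loci and falls outside the rule for named genes, so it was picked after its values were seen. It had 446, 439.8 and 1084 in WT and 2505, 2822 and 2389 in Prm2+/Δc and was not called (1.96 on the log2 scale, edgeR adjusted p = 0.77). WT replicate 3 was more than 2-fold above the other WT libraries, and all 3 Prm2+/Δc libraries were higher still. The palindrome TGACGTCA, which factors of the Crem family bind, was searched in promoters of 300 bases, from 250 before to 50 after the annotated start, in the RefSeq table for GRCm38.p6. It occurs in 588 of 32851 promoters (1.79%). Promoters of 6 of the 13 called genes were in that table, and 1 held it, that of Ing4 at chr6:125039598-125039897 on the plus strand, 250 bases before the start, shown with the match in capitals.
Ing4 promoter: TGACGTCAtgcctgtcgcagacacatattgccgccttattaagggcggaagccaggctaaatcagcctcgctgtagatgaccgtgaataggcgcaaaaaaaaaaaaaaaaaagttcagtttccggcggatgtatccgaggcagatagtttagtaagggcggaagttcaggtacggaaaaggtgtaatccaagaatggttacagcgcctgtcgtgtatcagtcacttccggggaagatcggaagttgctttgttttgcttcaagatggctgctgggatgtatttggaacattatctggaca
A match describes these letters and not a bound site.

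The precision of the comparison followed abundance. The median standard error of a log2 fold change was 1.12 at loci with a mean under 10 normalized counts, 0.56 from 10 to 30, 0.33 from 30 to 100, 0.23 from 100 to 300, 0.16 from 300 to 1000, 0.13 from 1000 to 3000 and 0.10 at 3000 or more. Either end of the 95% interval thus lay from 2.73 down to 0.25 away from the estimate, as a median. Below a mean of 30 there were 3553 loci and 0 edgeR calls, with 73 at an unadjusted p under 0.05 and 12 called by DESeq2. The median interval there was wider than 2-fold to either side. From 1000 upward there were 2601 loci and 8 edgeR calls, with 116 at an unadjusted p under 0.05 and 12 called by DESeq2. Among all 17815 loci tested, edgeR called 13 (0.073%).

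By position, the calls were spread over 9 chromosomes. Chromosome 4, with 1091 tested loci, held 3, Rps20, Fam110b and Tmem52. Of these, Rps20 and Fam110b lie 1.81 Mb apart and both were lower. Kxd1 and Acsl1 lie 24.0 Mb apart on chromosome 8, with opposite directions, and Trim17 and Csnk1d 62.0 Mb apart on chromosome 11, both higher. On chromosome 16, which carries Prm2, 0 loci were called by edgeR, and 12 of 279 tested had an unadjusted p under 0.05 (4.30%), with 2 called by DESeq2. Among all loci tested, edgeR called 0.073% and DESeq2 0.494%, so these calls say nothing particular of chromosome 16. Over all 13559 loci whose chromosome could be read from the numbering or the annotation, 537 had such a p (3.96%), from 2.60% on chromosome 10 to 5.79% on chromosome 13, apart from chromosome Y with 0 of 3.

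Loci with their own Ensembl identifier, 1643 of 24982 tested (6.58%), had low counts, with a median mean of 20.1. edgeR called 0 of them, 44 had an unadjusted p under 0.05 (2.68%), 16 higher and 28 lower, and DESeq2 called 2. Among all loci tested the shares were 0.073% by edgeR, 3.7% at such a p and 0.494% by DESeq2. With so low a share, 0 edgeR calls say nothing particular of these loci. The lowest edgeR adjusted p was 0.564, that of Trip10. Of the other higher ones, Gm36757, a noncoding RNA gene, had 5.99, 7.23 and 7.38 in WT and 19.2, 19.7 and 21.9 in Prm2+/Δc, and Nrk, a kinase gene, 11.97, 7.23 and 11.5 against 35.1, 14.6 and 35.2. Among the lower ones, Gm28557 (ENSMUSG00000100235) had 14.96, 24.1 and 11.5 in WT and 0 in every Prm2+/Δc library, at least 6.24-fold lower. Eogt, a glycosyltransferase of the endoplasmic reticulum, had 61.3, 50.6 and 41.8 against 14.7, 23.2 and 27.5, and Scn7a, a sodium channel gene, 34.4, 38.6 and 64.8 against 23.8, 16.3 and 18.3. None of these 5 overlapped between genotypes, and all 5 had an edgeR adjusted p of at least 0.835. They were picked by smallest p, which favours separate groups. Of the 1643 loci, 177 were without overlap, beside 10.2% of all loci tested.

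The 66 loci named only through the list for Prm2-/Δc show how genes picked in the other mutant genotype stood here. Of the 62 tested, edgeR called 0, 8 had an unadjusted p under 0.05 (6 higher, 2 lower), and DESeq2 called 0. These 8 are 12.9% of the list, beside 3.7% of all loci tested, and the list was drawn with the same WT libraries, so nothing is read from that share. The genes given from this list were picked after their values were seen. Ndufa5, a subunit of respiratory complex I, had 1418, 1294 and 1422 in WT, 1077, 1104 and 1048 in Prm2+/Δc and 2226, 2023 and 2672 in Prm2-/Δc (log2 fold change -0.36 in Prm2+/Δc, edgeR adjusted p = 0.999). The Prm2+/Δc libraries lay below WT and the Prm2-/Δc libraries above it. Reep6, a protein of membrane tubules, had 76.9, 41.2 and 12349.8 in Prm2+/Δc, and Cdk20, a kinase, 903, 11.2 and 21.1. In each, a single Prm2+/Δc library was far above the other two, replicate 3 for Reep6 and replicate 1 for Cdk20.

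Cell type markers could be checked only in part, since fewer than 80% of the genes of each list had a named locus, which makes the lists void as measures of composition. Of 8 epididymis genes, 4 had a named locus, Adam7, Lcn5, Lcn8 and Rnase9, and all 4 had 0 counts in all 6 libraries. All 4 are loci with an Ensembl identifier, a class that held only 0.376% to 0.414% of the counts. The assembled loci, which held the rest, mostly have no name, so these zeros are not read as absence. Of 7 red blood cell genes, 3 had one, with summed levels of 591, 381 and 495 in WT and 792, 1017 and 1418 in Prm2+/Δc, nearly all from Hbb-bs, a beta globin. Hbb-bs itself had 578, 381 and 491 in WT and 783, 1010.2 and 1415 in Prm2+/Δc, and was not called (log2 fold change 1.14, standard error 0.26, edgeR adjusted p = 0.999). DESeq2 called it. Every Prm2+/Δc library was above every WT library for this blood marker. Its locus was named through the list for Prm2+/Δc, drawn from these libraries, so the separation is no independent evidence. The part of blood in the differences was not tested. Serpina1a, a liver gene named through the same list, had 0 in WT and 12.4, 27.5 and 13.4 in Prm2+/Δc, at least 5.40-fold higher (edgeR adjusted p = 0.899). DESeq2 called it too.

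Among testis cells, 3 of 10 spermatogonia genes had a named locus, with sums of 117, 85.6 and 90.2 in WT and 73.5, 57.5 and 98.7 in Prm2+/Δc and Kit as the most abundant. The groups overlapped. Of 12 Sertoli cell genes, 3 had a named locus, of which Amh and Fshr were at 0 in all 6 libraries and Gdnf was low. All 3 are likewise Ensembl loci, so their values are not read as absence. Of 9 Leydig cell genes, only Lhcgr had one (8.98, 26.5 and 15.6 in WT and 14.7, 11.2 and 6.34 in Prm2+/Δc). Of 8 peritubular myoid cell genes only Myl9 had one, with 572, 504 and 6.56 in WT and 4.52, 7.72 and 11.3 in Prm2+/Δc, so WT replicate 3 stood with the Prm2+/Δc libraries. Endothelial genes (4 of 6 named) summed to 40.4, 30.1 and 32.8 in WT and 30.5, 49.8 and 30.3 in Prm2+/Δc, and macrophage genes (2 of 8) to 12.0, 20.5 and 21.3 against 40.7, 37.8 and 18.3. In both the groups overlapped. Spermatocyte and elongating spermatid genes were named only at M1ap and Cylc1, and round spermatid genes at none of 10.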

How the data were processed

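The authors prepared 3′ mRNA libraries (QuantSeq), mapped reads of 50 bases with HISAT2 2.1 to GRCm38 (Ensembl release 89) and assembled loci with StringTie 1.3.3. The values the authors deposited are estimated counts per locus (expected counts), whole numbers without normalization. The read length passed to the script that made these counts, and its strand setting, are not given.

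The 3 Prm2+/Δc and 3 WT libraries, of 9070746 to 20320362 counts, were compared with edgeR 4.0.16 in R 4.3.3 (TMM, filterByExpr, glmQLFit, glmQLFTest, Benjamini-Hochberg over 17815 loci), checked on simulated data. A standard error is the size of the log2 fold change over the root of F. Size factors for normalized counts come from DESeq2 1.42.0 and all 9 libraries. Floors of 3 counts cover counting error only. Nothing in the labels says that each library is a separate animal.

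Genes named are all called loci, the 3 of smallest p in each of 12 role lists, the 5 largest folds not called, the 3 higher and 3 lower Ensembl loci of smallest p, Prm2, Hbb-bs and Serpina1a. Role lists came from names in the study's own lists of differing loci. The members and lists were chosen with earlier results of these data known. Positions and overlaps are from GENCODE vM21.

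Alternatives were DESeq2, other scalings, filters, dispersions, fold cutoffs and count scales, all 9 libraries together, a replicate block, summed loci, and leaving out each library.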

Additional observations from a re-analysis of the deposited data

Results flagged for a closer look

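The difference of Slc25a3 from WT was itself different between both genotypes that carry the edited allele. Normalized counts were 1628, 1563 and 1422 in WT, 114, 124 and 94.5 in Prm2+/Δc, and 1593, 1423 and 1788 in Prm2-/Δc. Each Prm2+/Δc library was lower than the 6 libraries of the other genotypes. Tested directly, Prm2-/Δc was 3.85 higher than Prm2+/Δc on the log2 scale (standard error 0.18, edgeR adjusted p = 0.0078). It was not called without Prm2+/Δc replicate 2 (edgeR adjusted p = 0.0528), without Prm2+/Δc replicate 3 (0.0929) or with the replicate number as a block (0.575), within a range from 1.7e-71 to 0.575.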

How the results depend on the processing

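The edgeR fit of the 6 libraries called 5 loci higher and 8 lower in Prm2+/Δc, and 1 of these also differed between Prm2-/Δc and Prm2+/Δc. With DESeq2 the numbers were 41, 47 and 12. With all 9 libraries in 1 fit, 2 were higher and 3 lower, among them Slc25a3, Pcgf5, Rps20 and Fam110b. When edgeR tested for a fold beyond 1 on the log2 scale, 3 were higher. With the replicate number as a block, 1 was higher and 2 lower, and 0 also differed between the mutant genotypes, where 1 did by edgeR without it and 12 by DESeq2. The labels number the replicates within each genotype and state no pairing, and deviations of WT and Prm2+/Δc libraries of the same number correlated at 0.0439, -0.00285 and 0.0695 across loci. Leaving out 1 library at a time gave 5 to 14 higher loci, 7 to 23 lower loci, and 0 to 2 that also differed between the mutant genotypes. The log2 fold change of Prm2 ran from -0.21 to -0.08 without 1 library. The cause of these changes was not tested.

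Over the 45 other named genes and the alternatives run, 0 of 731 fold changes turned their direction, 651 stayed on their side of the threshold, 42 lost a call and 38 gained one, 27 of these with DESeq2. The block ended 10 calls and the fit of all 9 libraries 9. Slc25a3 was the 1 gene called in all 12 fits that left out no library.

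Limits are the 3 libraries per genotype, the spread between them, with a square root of the common dispersion of 0.407, and the missing names of most loci. Below a mean of 10 normalized counts, the 95% interval of a log2 fold change reached a median of 2.73 to either side. Reads shared with copies or neighbouring genes, traces of DBA/2 sequence and the cell composition of each testis were not separated from the genotype.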
